A study of Ovis aries with 10 samples.

Results

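The circular RNAs described here are the 806 that were listed in every one of 10 sheep muscle libraries, out of 8721 circular RNAs listed in at least one of them (9.24%). They were chosen on measured reads: a circular RNA belongs to the set when each library has an entry for it, and the smallest entry in the table is 2 junction reads. Abundance and presence are therefore properties of the choice and are given as descriptions. The rule names no difference between the surgical groups, but it needs an entry in every library of both. A circRNA without entries in one group therefore cannot be a member, however large its group difference.

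All 10 libraries were made from small-tailed Han sheep, and 5 of the sheep samples carry the label sham surgery and 5 the label ovariectomized. Ovariectomy removes the ovaries and with them the main source of estrogen. The design text gives the purpose as the effect of estrogen on muscle of female animals. The tissue label is longissimus dorsi, a long muscle of the back, while another label calls the samples primary myoblasts and the protocols describe a culture with estradiol, but no sample has an estradiol dose. The labels leave whole muscle or cultured cells as the source of the RNA unsettled. They give no age and do not say that the libraries are separate animals, and all p-values refer to the spread among these libraries, which may be technical.

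Circular RNAs (circRNAs) form when the splicing machinery joins the downstream end of an exon to an upstream exon start, which closes the transcript into a ring. The join is called a back-splice junction, and a read across it cannot come from the linear messenger RNA of the gene. Rings lack free ends, so the exonucleases that degrade linear RNA do not attack them, and circRNAs are known to accumulate in cells that divide rarely, such as neurons and muscle fibers. Many rings hold a few internal exons of a protein-coding gene, whose linear transcript continues to be made in parallel.

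The deposited table gives 2 read counts per circRNA and library, junction reads and non-junction reads. Neither the labels nor the file headers define a non-junction read; here it is read as one that lies at an end of the circRNA without crossing the junction, as reads of the linear transcript do. Junction reads per library ranged from 35731 to 67061 (all circRNAs), and 2559 to 3543 circRNAs were listed per library. Together the 806 took 266231 of 445393 junction reads (59.8%). Their share was 56.1, 60.9, 46.9, 62.0 and 58.5% in sham replicates 1 to 5 and 62.4, 64.8, 62.5, 65.7 and 59.8% in ovariectomized replicates 1 to 5, ranges that overlap. A single SENP6 circRNA outside the set, the most abundant of the table and missing from replicates 2 and 4 of both groups, made part of this spread: without it the shares ran from 60.9 to 67.4%. Ovariectomized replicate 5 stood apart in depth, with the 67061 junction reads, and in the balance of the 2 counts, with 0.137 junction reads per non-junction read over the set against 0.0586 to 0.0920 in the other 9 libraries.

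In structure the 806 were mostly exonic rings of a few blocks. A block is a segment that the table lists as kept in the spliced circRNA, which for exonic circRNAs is an exon or part of one. By the authors' classes 773 were exonic, 22 intronic and 11 intergenic. Of the 806, 668 (82.9%) held 2 to 4 blocks, 47 held 1, and 91 held 5 or more. The median spliced length was 372 bases (range 36 to 2059) and the median genomic span 7309 bases (203 to 93606). In 748 both junction ends fell on block ends, and in 58 only one end did; the latter were shorter, with a median spliced length of 185 against 383 bases. Single-block rings were of 2 kinds: 21 with both ends on the block had a median spliced length of 372 bases and 0.299 junction reads per non-junction read, and 26 with one end off the block had 123.5 bases and 0.0787.

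These features changed in steps with the number of libraries that listed a circRNA. From circRNAs listed in 1 library through 2 to 5, 6 to 8 and 9 libraries to all 10, the share with both ends on block ends was 60.6, 67.1, 75.8, 83.2 and 92.8%. Single-block circRNAs made up 31.7, 23.0, 16.9, 12.5 and 5.83%, and the median spliced length was 268, 282, 312, 335.5 and 372 bases. Median junction reads per non-junction read were 0.0333, 0.0376, 0.0470, 0.0641 and 0.120. Junction reads also decide the listing, so a rise of this ratio is in part built into the grouping. The genomic span showed no such order, with medians of 7159, 7955, 8082, 9366 and 7309 bases. Reads per circRNA moved with these values (median total of 3, 12, 41, 78 and 165 junction reads), and their part in the structural steps was not tested.

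The longest ring was also the most abundant: novel_circ_0013887 of UBE3A, an E3 ubiquitin ligase, at chr18:1674006-1679847 on the minus strand, with 4 blocks and 2059 spliced bases. Next in length were rings of PALS2, a membrane scaffold protein (1170 bases in 1 block), KLHL24, a substrate adaptor of ubiquitin ligases (1023), SOX6, a transcription factor of the fiber type program (919, in 7 blocks), and PUM2, a repressor that binds messenger RNA (856, in 6 blocks). The 5 shortest came from RPAP2 (36 bases), USP34 (49), JMJD1C (58), MYBPC1 (75) and MBTPS2 (76), and in each of them one junction end lay off a block end. Within the set, spliced length and mean abundance had a Spearman's rank correlation of 0.227 across the 806 circRNAs, as a description.

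The host genes numbered 623 for 795 circRNAs, and 11 circRNAs had no host. They are 18.1% of the 3436 hosts with any listed circRNA. Of the 623, 616 are protein coding in the gene table, 3 are long noncoding RNAs and 4 were not in the table. Most hosts, 499, had a single member, 93 had 2, 19 had 3, 7 had 4 and 5 had 5. Within its host the set took most of the reads, with a median of 88.6% of all junction reads of the gene, and 296 hosts had over 90% of their reads in it. Members were chosen on reads in every library, so this share is in part built in. In 122 hosts every listed circRNA was a member. Chromosome 1 held 97 members (12%, against 11.6% of all listed circRNAs) and chromosome 3 held 84 (10.4% against 9.99%). Chromosome 2 held 74 (9.18% against 11.4%) and chromosome 7 held 56 (6.95% against 5.56%).

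Abundance was strongly uneven. Normalized junction reads (reads corrected for the library size after trimmed-mean scaling) had a median of 16.3 over the 806 means, with quartiles at 10.6 and 32.0 and a range from 4.96 to 1197. Of the set, 102 circRNAs held 50% of its reads and the top 10 held 17.6%. Only 39 reached a mean of 100 normalized reads, and 14 had at least 100 junction reads in every library. At the low end, 101 had a library with the minimum entry of 2 reads.

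**Figure D1:**
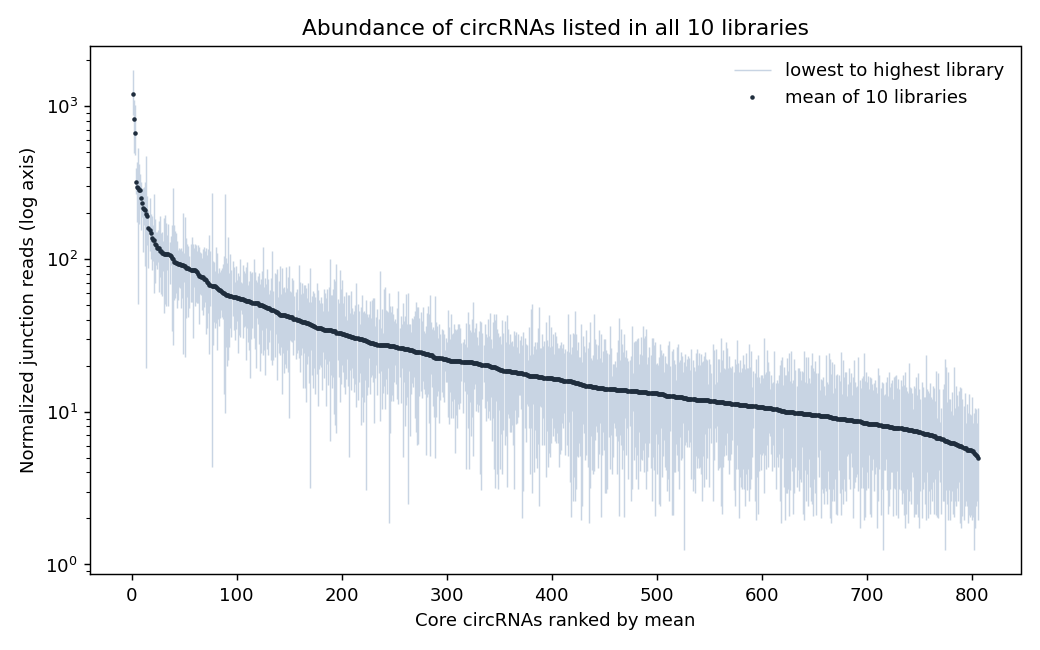
Mean normalized junction reads of the 806 circRNAs on a log axis against their rank, with pale bars from the lowest to the highest of 10 libraries. The means fall from 1197 at rank 1 to 4.96 at the last rank, and the bars are wider for less abundant circRNAs.

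The most abundant ring was that of UBE3A. Its normalized junction reads were 1255, 929, 869, 985 and 1053 in sham replicates 1 to 5 and 1414, 1206, 1213, 1724 and 1319 in ovariectomized replicates 1 to 5. The ovariectomized libraries lay between 1206 and 1724 and the sham libraries between 869 and 1255, so the groups overlapped only through sham replicate 1. The log2 difference, ovariectomized minus sham, was 0.44 ± 0.14 (limma voom, ± standard error) with an adjusted p of 0.781, which does not pass 0.05. With the looser filter of at least 2 reads in at least 5 libraries it was 0.48 ± 0.08 and passed (adjusted p 1.26e-05). It passed in no other setting. A second UBE3A ring in the set, novel_circ_0013881, starts at the same upstream position and had only 64 junction reads in all 10 libraries against 12408.

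TTN, the gene of titin, the elastic filament of the sarcomere, gave the ring with the second highest mean, novel_circ_0002388 at chr2:131449468-131450690 on the plus strand, of 2 blocks. Over the libraries, normalized junction reads were 1091, 627, 667, 790.4 and 996 in sham replicates 1 to 5 and 959, 1086, 914, 601 and 491 in ovariectomized replicates 1 to 5. Both groups covered the same range, and the lowest value was that of ovariectomized replicate 5, where the non-junction reads of this ring were also lowest (3218 against 6634 to 10184 elsewhere).

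ANO5, an anoctamin of muscle membranes, followed with novel_circ_0015117. Its normalized junction reads were 661, 603, 567, 477 and 672 in sham replicates 1 to 5 and 552, 1017, 796, 630.3 and 716 in ovariectomized replicates 1 to 5, with the highest value in ovariectomized replicate 2 and the groups overlapping. Below these 3, the next values lay close together, between 213 and 318 on average, and neighbours in this order differed by less than their standard deviations between libraries.

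USP3, a deubiquitinase that acts on histones, gave a steady ring, novel_circ_0008244. Normalized junction reads of this ring were 385, 393, 385, 311 and 299 in sham replicates 1 to 5 and 292, 284, 277, 289.6 and 268 in ovariectomized replicates 1 to 5. Every ovariectomized library was below every sham library, by a narrow margin of 292 against 299, with a log2 difference of -0.32 ± 0.15 and an adjusted p of 0.781 (limma voom). With no filter on low counts it was -0.25 ± 0.03 and passed (adjusted p 7.17e-09). It passed in no other setting, and that fit takes in all 8721 circRNAs, with a median total of 10 junction reads.

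GFM1, an elongation factor of mitochondrial translation, had normalized junction reads of 268, 262, 236, 264 and 215 in sham replicates 1 to 5 and 432, 413, 175, 374 and 304 in ovariectomized replicates 1 to 5. The sham values were tight and 4 of 5 ovariectomized values were above all of them, while ovariectomized replicate 3 was the lowest of all. Its log2 difference was 0.39 ± 0.22 (limma voom, adjusted p 0.802).

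STAU2, a protein that binds double-stranded RNA and carries messenger RNA, had normalized junction reads of 267, 309, 227, 219.5 and 534 in sham replicates 1 to 5 and 359, 278, 327, 339.8 and 50.8 in ovariectomized replicates 1 to 5 for novel_circ_0009801. One library of each group stood far from the rest, in opposite directions, and the log2 difference of -0.48 ± 0.58 became 0.16 without ovariectomized replicate 5 (limma voom).

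ZEB1, a transcriptional repressor with zinc fingers, gave a ring that the table classes as intronic although its 3 blocks end at the junction ends, novel_circ_0011893. Its normalized junction reads were 271, 378, 227, 265 and 417 in sham replicates 1 to 5 and 169, 305, 261, 257 and 277 in ovariectomized replicates 1 to 5, with overlapping groups. The other 5 of the 12 most abundant rings came from MORC3, a nuclear ATPase, SNX13, a sorting nexin, AIDA, an axin interactor, PPP2R3A, a regulatory subunit of protein phosphatase 2A, and ARHGAP10, a GTPase activating protein. Their log2 differences lay between -0.33 and 0.07, and their adjusted p-values between 0.847 and 0.968 (limma voom).

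**Figure D2:**
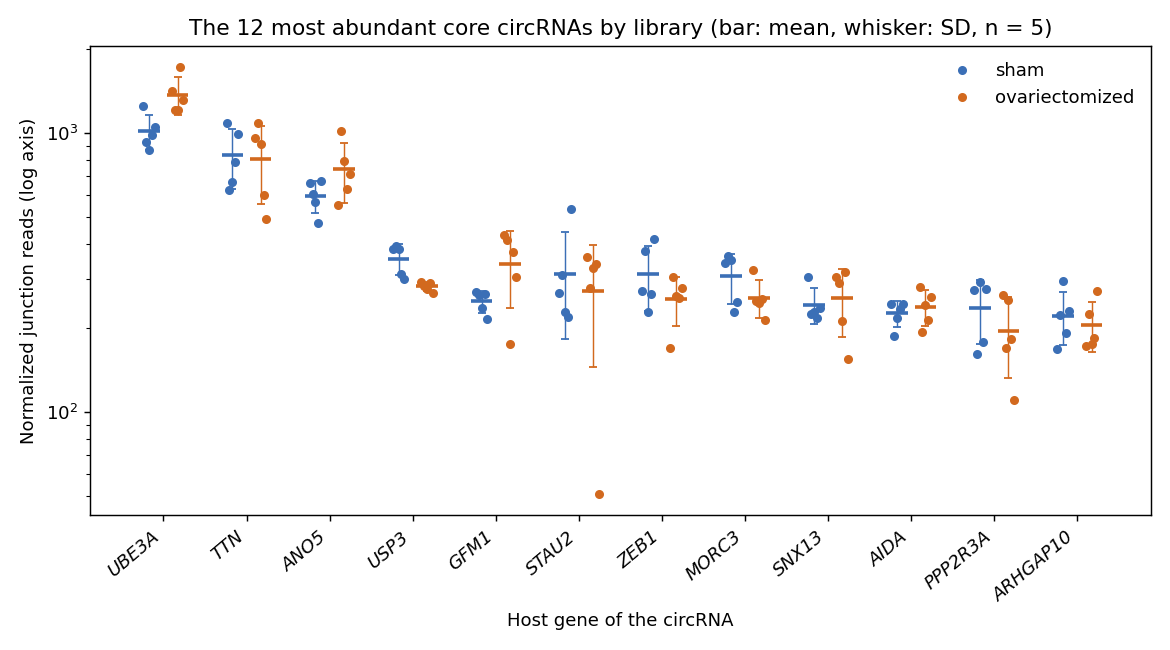
Normalized junction reads on a log axis for the 12 most abundant circRNAs, labelled by host gene, with 1 point per library (blue sham, orange ovariectomized), bars at the group mean and whiskers of 1 SD (n = 5 per group). The UBE3A values lie between 869 and 1724, and the STAU2 ring has one ovariectomized library at 50.8 far below the others.

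Families of rings from one gene shared ends. Of the 124 hosts with at least 2 members, 90 had a pair with a common end, in 38 every member started at one upstream end and in 29 every member closed at one downstream end. In all, 218 of the 806 (27.0%) shared an end with another member. The leading ring held more than 50% of the family's reads in 109 of 124, with a median of 68.7%. In the 93 families of 2 rings the leading one holds at least 50% by arithmetic, so this count shows no dominance. MICU3, a regulator of mitochondrial calcium uptake, had 4 rings, all with the upstream end at position 19335087 of chromosome 26, with 878, 343, 335 and 131 junction reads. ARHGAP10 had 5, of which 4 shared the downstream end at position 10276004 of chromosome 17, and the leading one held 2214 of the 3076 reads.

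The other large families also shared ends. STAU2 (5 rings) and ANO6, a phospholipid scramblase (5 rings), each had 3 rings at one upstream end. ZNF638, a zinc finger protein (5 rings), RAB23, a small GTPase (4 rings), and SLC12A2, the sodium, potassium and chloride cotransporter (4 rings), each had 3 at one downstream end. TTN had 5 rings with 82.0% of the reads of its 125 listed circRNAs.

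Some rings had a near copy whose junction lay within 10 bases. There were 24 members with such a neighbour among all listed circRNAs, and in 13 of them the ends differed by exactly 3 bases. The TTN rings novel_circ_0002388 and novel_circ_0002394 differ by 3 bases at the upstream end and had 8114 and 111 junction reads, with 76809 and 77814 non-junction reads. The HERC4 rings novel_circ_0016435 and novel_circ_0016434, from a gene for a HECT ubiquitin ligase, differ by 5 bases and had 1635 and 233 junction reads. Rings that share an end can draw in part on the same non-junction reads, so their values are not independent, although their totals can differ: the ANO5 rings share the downstream end and had 4394 and 7935. The assignment of junction reads between neighbours a few bases apart is uncertain.

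The spread between libraries was larger for junction reads than for non-junction reads. Over the 10 libraries the median coefficient of variation (SD divided by the mean of normalized reads) was 42.7% for junction reads (range 10.1 to 136%) and 22.4% for non-junction reads. Counting error alone would give medians of 24.9 and 8.00%. The junction value was the larger one in 677 of 806 (84.0%). In 4 groups of about equal size and rising abundance, the median for junction reads fell from 50.1 through 45.8 and 37.8 to 31.4%, while for non-junction reads of the same rings it was 22.2, 22.1, 22.9 and 22.5%. The highest library exceeded the lowest by a median of 4.15-fold for junction reads and 2.08-fold for non-junction reads, and 67 rings spanned more than 10-fold, 49 less than 2-fold.

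Pairs of libraries from different groups had a slightly lower median and minimum likeness than pairs of the same group, with largely overlapping ranges. The highest value for junction reads came from a pair of different groups. Across the 806, Spearman's rank correlation of normalized junction reads between pairs of libraries was 0.687 to 0.754 within sham (median 0.731), 0.691 to 0.743 within ovariectomized (0.721) and 0.657 to 0.756 between groups (0.708). For non-junction reads the ranges were 0.916 to 0.962, 0.911 to 0.968 and 0.875 to 0.968. These are descriptions across circRNAs that share libraries, and circRNAs are not replicates.

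The steadiest ring with a mean of at least 20 junction reads came from WASL, which encodes an activator of actin nucleation. The normalized junction reads were 22.1, 25.3, 19.4, 20.7 and 23.2 in sham replicates 1 to 5 and 18.6, 21.4, 23.2, 25.1 and 21.1 in ovariectomized replicates 1 to 5, a coefficient of variation of 10.1%. AIDA followed at 12.5% with normalized junction reads of 245, 188, 217, 233 and 244 in sham replicates 1 to 5 and 281, 193, 241, 213 and 259 in ovariectomized replicates 1 to 5. WSB1, a ubiquitin ligase adaptor, had 14.3%, SNRK, a kinase, 15.4% and USP3 15.5%.

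At the other end stood an intergenic ring, novel_circ_0008816 at chr8:15080852-15087088, with a coefficient of variation of 136%. By library, normalized junction reads were 20.8, 12, 46.3, 24.6 and 269.6 in sham replicates 1 to 5 and 12.4, 43.7, 37, 199 and 4.34 in ovariectomized replicates 1 to 5. One library of each group, sham replicate 5 and ovariectomized replicate 4, was far above the other 8, which lay between 4.34 and 46.3. Its non-junction reads did not follow: sham replicate 5 had 2125 and ovariectomized replicate 4 had 3666, inside the range of 1318 to 4539 of all libraries.

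EPDR1, an ependymin-related secreted protein, had normalized junction reads of 32.5, 115, 23.7, 9.84 and 22.2 in sham replicates 1 to 5 and 21.7, 268, 40.1, 39.9 and 15.5 in ovariectomized replicates 1 to 5 and a coefficient of variation of 135%. Replicate 2 of each group was the high library, and both groups otherwise lay between 9.84 and 40.1. SMC6, a subunit of a chromosome maintenance complex, followed at 98.2%. By library it had normalized junction reads of 7.81, 56.5, 6.47, 100.4 and 9.09 in sham replicates 1 to 5 and 56.8, 66.1, 7.39, 8.67 and 21.1 in ovariectomized replicates 1 to 5. In each group, libraries above 50 stood beside libraries below 10, while its non-junction reads ranged only from 26 to 59. CAAP1, a regulator of apoptosis, and LOC101108695 completed the 5 widest at 80.0 and 79.3%.

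The SENP6 ring novel_circ_0008942, from a gene for a SUMO protease, showed a wide spread of non-junction reads, with a coefficient of variation of 80.3%. It was named after its values were seen. Its non-junction reads were 446, 94, 813, 86 and 478 in sham replicates 1 to 5 and 198, 101, 217, 116 and 230 in ovariectomized replicates 1 to 5, and its junction reads 105, 34, 104, 57 and 111 in sham replicates 1 to 5 and 50, 76, 73, 113 and 180 in ovariectomized replicates 1 to 5. In both groups replicates 2 and 4 had the lowest non-junction reads. These 4 libraries are also the ones with no entry for the abundant SENP6 circRNA outside the set.

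**Figure D3:**
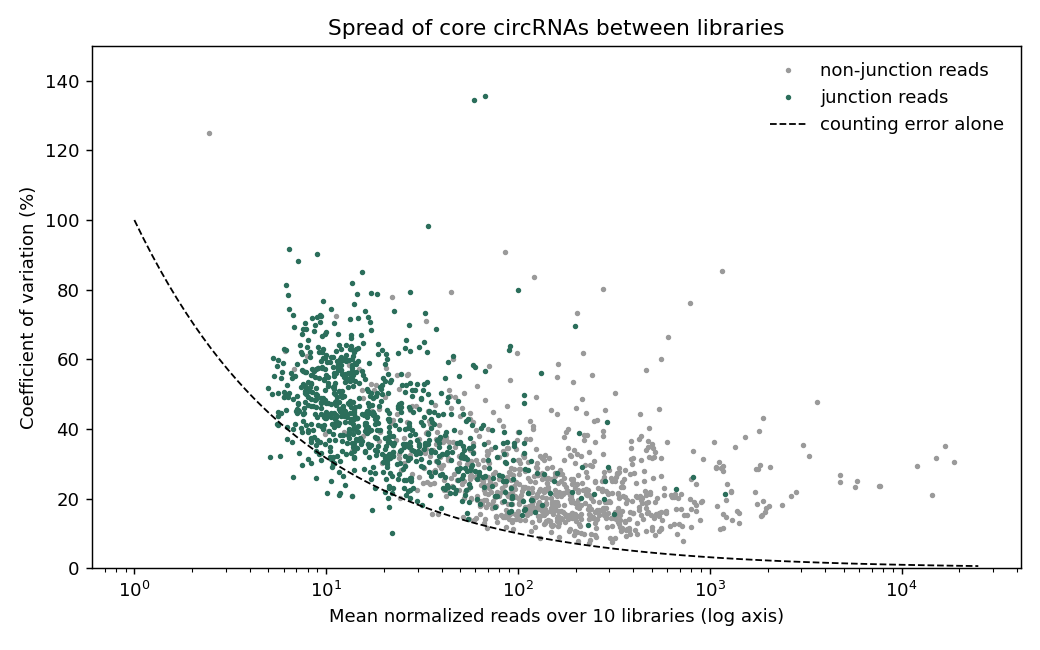
Coefficient of variation over 10 libraries against mean normalized reads (log axis) for junction reads (green) and non-junction reads (grey) of the 806 circRNAs, with a dashed line for counting error alone. Junction reads center at 42.7% and non-junction reads at 22.4%, and 2 green points near 135% are the intergenic ring and that of EPDR1.

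Junction reads per non-junction read set the ring beside the linear transcript at the same place, as far as non-junction reads come from that transcript. Their origin was not tested. Summed over libraries the median was 0.120, with quartiles at 0.0482 and 0.316 and a range from 0.000532 to 7.10. Non-junction reads exceeded junction reads in every library for 665 rings. The reverse held in every library for 13, and 47 were above 1 in the sum. Junction and non-junction totals were almost unrelated across the set (Spearman's rank correlation 0.0501, a description). Over the same 4 groups of rising abundance the median ratio was 0.0575, 0.0733, 0.155 and 0.413. The groups are formed by junction reads, the numerator of the ratio, so this rise is in part built in.

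The 3 highest ratios came from rings with few non-junction reads. The intergenic novel_circ_0003030 at chr2:178915022-178916703 had 440 junction and 62 non-junction reads (ratio 7.10). Its junction reads were 20, 29, 58, 29 and 54 in sham replicates 1 to 5 and 26, 23, 25, 58 and 118 in ovariectomized replicates 1 to 5, and its non-junction reads were 7, 14, 3, 1 and 5 in sham replicates 1 to 5 and 4, 5, 3, 12 and 8 in ovariectomized replicates 1 to 5. In each of the 10 libraries junction reads were the more numerous. TEKT3, a tektin of cilia, followed at 5.65, with no non-junction read in 3 libraries, then LOC105605336, a long noncoding RNA locus on chromosome X, at 4.08, USP3 at 3.14 and UHRF1BP1 at 3.05.

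Among abundant rings with deep counts on both sides, UBE3A had a ratio of 2.59, ZEB1 2.89 and ANO5 1.56. The UBE3A ratios were 1.93, 1.93, 1.71, 1.89 and 2.58 in sham replicates 1 to 5 and 3.1, 2.24, 2.52, 2.94 and 5.69 in ovariectomized replicates 1 to 5. All 10 were above 1, and ovariectomized replicate 5, the library with the highest ratio over the set, was the highest here too.

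The lowest ratios belonged to rings of genes for contraction and calcium handling. ATP2A1, the calcium pump of fast fibers, had novel_circ_0016238 with 77 junction reads against 144726 non-junction reads. Its junction reads were 2, 8, 6, 9 and 4 in sham replicates 1 to 5 and 5, 2, 17, 10 and 14 in ovariectomized replicates 1 to 5, near the smallest entry in several libraries. The next 4 were rings of MYBPC1, a myosin binding protein (0.000688, 0.00157 and 0.00218), and the near copy of the main TTN ring (0.00143).

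**Figure D4:**
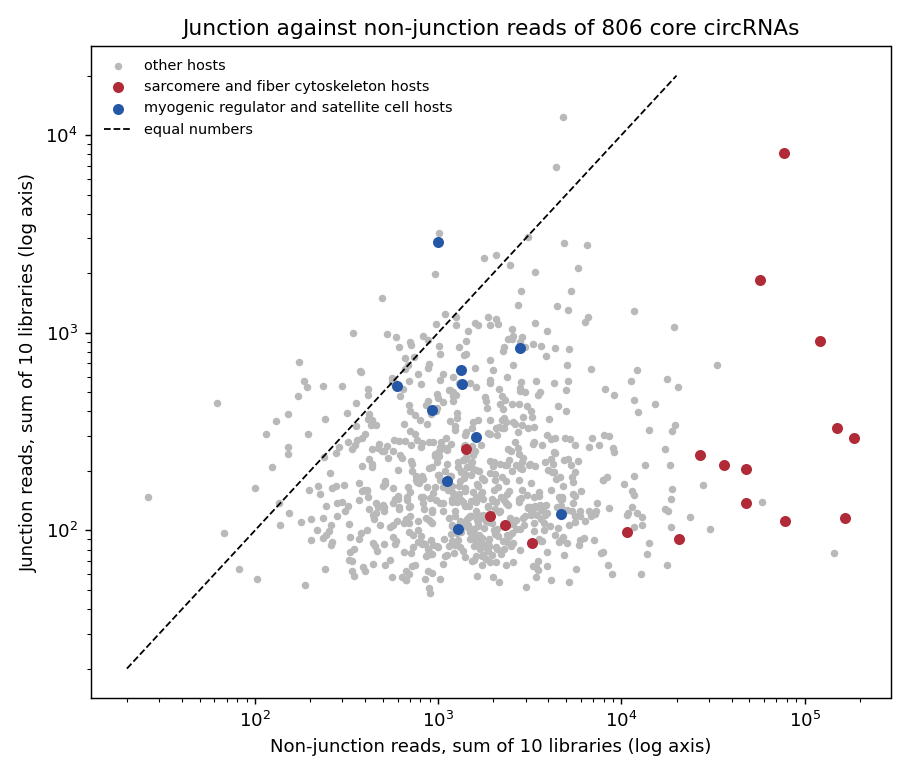
Junction reads against non-junction reads, each summed over 10 libraries on log axes, for the 806 circRNAs, with a dashed line at equal numbers. Rings of sarcomere and fiber cytoskeleton genes (red) lie far to the right with a median of 0.00748 junction reads per non-junction read, and rings of myogenic regulators (blue) at 0.353, while 47 rings are above the line.

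Gene lists, chosen with earlier results of these data known, gave the makeup of the hosts. Among 67 sarcomere and fiber cytoskeleton genes, 39 hosted a listed circRNA and 10 a member of the set, with 17 rings. TTN led with 10410 junction reads, before NEB, the thin filament ruler nebulin, with 906 and MYBPC1 with 735. Their median of 0.00748 junction reads per non-junction read compares with 0.120 over the set, and their median non-junction total was 48109 against 1575. The NEB ring had normalized junction reads of 100.2, 106, 23.7, 55.1 and 91.9 in sham replicates 1 to 5 and 52.7, 199, 77.1, 177 and 29.7 in ovariectomized replicates 1 to 5, from 23.7 in a sham library to 199 in an ovariectomized one, with overlapping groups.

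Of 34 genes for calcium release and membrane excitability, 7 hosted 8 rings, led by ANO5 (7036 reads), CLCN1, the muscle chloride channel (467), and JPH1, a protein of the triad junction (248). Of 37 myogenic regulators and satellite cell genes, 6 hosted 10 rings with a median ratio of 0.353: ZEB1 (3522), LRP6, a Wnt co-receptor (946), and MET, the receptor of hepatocyte growth factor (840). MET had normalized junction reads of 95, 55.3, 57.1, 59.1 and 52.5 in sham replicates 1 to 5 and 111, 109, 118, 123 and 54.5 in ovariectomized replicates 1 to 5. Ovariectomized replicates 1 to 4 were above every sham library, and replicate 5 fell among the lowest; the log2 difference was 0.64 ± 0.27 (limma voom, adjusted p 0.781).

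Regulators of signalling and RNA hosted further rings, and their counts can be read beside the 18.1% of all listed hosts that have a member. Ubiquitin and SUMO enzymes gave 28 hosts of 127 genes (31.1% of the 90 with a listed circRNA) and 38 rings, led by UBE3A, USP3 and HERC4. Protein kinases gave 24 of 107 (32.4% of 74 listed) and 31 rings, led by PRKAA2, a catalytic subunit of the AMP-activated kinase (2492 reads), INSR, the insulin receptor (1175, all from a single ring of 1 block), and MAPK8, a stress-activated kinase (682). Regulators of small GTPases gave 18 of 83 (28.1% of 64 listed) and 28 rings, led by ARHGAP10, RALGAPA1 (2358) and DOCK1 (947). Chromatin and histone modifiers gave 17 of 91 (26.2% of 65 listed) and 22 rings, led by ARID2 (689), KDM4C (483) and ATRX (419), and RNA binding and splicing genes 14 of 101 (22.6% of 62 listed) and 22 rings, led by STAU2 (3565), QKI (849) and PUM2 (568). Of 70 genes well known as circRNA hosts in human or mouse, 19 hosted 42 rings with 37539 reads (40.4% of 47 listed). Listing in every library goes with abundance and gene length was not considered, so no list is called enriched.

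Genes listed as markers of other cells hosted listed circRNAs to differing degrees. Hosts were 3 of 22 immune genes, 4 of 16 for adipocytes, 9 of 18 for endothelium and 9 of 26 for fibroblasts and matrix. Pericytes and smooth muscle had 5 of 15, and cell proliferation 0 of 34. The muscle lists had 39 of 67 (sarcomere), 17 of 34 (calcium and excitability) and 17 of 37 (myogenic regulators). No member came from the endothelial, immune or proliferation genes. Of all listed hosts 18.1% had a member, so 0 among 9 endothelial and 3 immune hosts says little. Each of the other cell lists gave 1 host: ABCC9 for smooth muscle and pericytes (225 reads), COL15A1 for matrix and fibroblasts (403) and ACACB for adipocytes (217). A place on a list does not tell which cells the reads of a ring came from, and muscle fibers may be among them. Of 30 estrogen receptors and targets, 11 hosted a listed circRNA and NRIP1 a member (66 reads). Rings of TTN, NEB, MYBPC1 and ATP2A1, genes of differentiated fibers, were present in all 10 libraries, which is how members were chosen. Of the 39 listed hosts among the sarcomere and fiber cytoskeleton genes, 10 (25.6%) had a member. A MYH2 ring with 451 junction reads had no entry in ovariectomized replicate 2. A gene without a circRNA is invisible in these tables, so absence from the list says nothing of its messenger RNA.

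The threshold for membership was soft. Among the 376 circRNAs listed in 9 libraries, the median total was 78 junction reads, and 131 had a lowest entry of 2. Just inside, the 101 members with a library at 2 reads had totals from 48 to 195 (median 84). A few abundant circRNAs were left out by a single library: an intergenic one, novel_circ_0000941, had 1362 junction reads and no entry in sham replicate 5, where the other entries were 89 to 266. ST3GAL6, a sialyltransferase, had 739 reads and SUN1, a nuclear envelope protein, 630, both with no entry in ovariectomized replicate 4.

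The surgical groups were compared for junction reads over all circRNAs with enough reads, 738 in number, of which 605 are in the set and 201 of the set fell below the filter. None was called at an adjusted p of 0.05 (0% of those tested, limma voom), and the limma trend fit also called 0. The smallest adjusted p was 0.208. In bulk RNA, fewer cells of a type and less RNA per cell cannot be told apart. At an unadjusted p under 0.05 stood 42 of the 738 (5.69%), of which 36 of the 605 in the set (5.95%). In the set 9 were higher and 27 lower after ovariectomy, where 1.22% and 4.47% of all tested were. This split turned with the scaling: with library totals in place of trimmed means the 738 gave 27 higher and 12 lower, and the median log2 difference of all tested moved from -0.04 to 0.14. Without ovariectomized replicate 5 it was 22 higher and 12 lower.

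The smallest p belonged to LOC105605336, ring novel_circ_0017141 at chrX:1937789-1945133 on the minus strand. The ring had normalized junction reads of 32.5, 40.9, 23.7, 60.0 and 31.3 in sham replicates 1 to 5 and 103, 70.2, 96.1, 143 and 71.9 in ovariectomized replicates 1 to 5. Every ovariectomized library was above every sham library, with group means of 96.9 ± 29.6 and 37.7 ± 13.9 (SD, n = 5 each) and a log2 difference of 1.35 ± 0.29 (limma voom, adjusted p 0.208). The difference passed 0.05 in the fit over the 806 alone (adjusted p 0.0313, limma voom) and with 2 looser filters on low counts. The ring also passed with a replicate block (1.35 ± 0.25, adjusted p 0.0109, limma voom), though whether replicate numbers pair the libraries is not settled. Its non-junction reads, 13, 16, 12, 24 and 8 in sham replicates 1 to 5 and 29, 12, 9, 28 and 24 in ovariectomized replicates 1 to 5, overlapped between groups.

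Groups did not overlap for 10 of the 738 tested (1.36%), and all 10 were among the 605 of the set, 4 higher and 6 lower. Of the 4 higher, 3 (SRSF1, ATRN and NADK2) reached the read minimum of the filter only in the 5 ovariectomized libraries, so they could enter the fit only by being higher there, and no weight is placed on this count. REV3L, the catalytic subunit of DNA polymerase zeta, was the lower one with the smallest p. It had normalized junction reads of 28.6, 50.5, 32.3, 55.1 and 29.3 in sham replicates 1 to 5 and 16.5, 18.3, 19, 15.6 and 16.1 in ovariectomized replicates 1 to 5, and the log2 difference was -1.14 ± 0.29 (limma voom, adjusted p 0.407). NDST2, an enzyme of heparan sulfate, had values of 23.4, 27.7, 24.8, 23.6 and 21.2 in sham replicates 1 to 5 and 8.27, 19.3, 6.33, 7.8 and 13.6 in ovariectomized replicates 1 to 5, also apart, with -1.14 ± 0.35. NARS2, the mitochondrial asparaginyl tRNA synthetase (-0.99 ± 0.36), was apart as well, while TTC7B (-0.86 ± 0.31) and RAB12, a small GTPase (-0.97 ± 0.35), overlapped. On the higher side, after UBE3A, came LRP6 (0.99 ± 0.35), KCTD10 (0.66 ± 0.26) and VAPA, a membrane contact protein (1.17 ± 0.49), all with an adjusted p of 0.781 (limma voom). LRP6 passed with no filter on low counts (1.19 ± 0.27, adjusted p 0.0151) and in no other setting.

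Non-junction reads could be compared for 800 of the 806, and only members of the set have a value in every library, so the background is the set itself. Of the 800, 2 passed an adjusted p of 0.05 (0.25%, limma voom), 1 in each direction, and 107 had an unadjusted p under 0.05 (13.4%), 58 higher and 49 lower. With library totals as the scaling the 107 became 103, with 37 higher and 66 lower. The groups did not overlap for 23 (2.88%), 12 higher and 11 lower.

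The higher one was ASB15, an ankyrin repeat protein of skeletal muscle. The normalized non-junction reads at novel_circ_0006447 (chr4:89521656-89524950) were 386, 315, 315, 491 and 255 in sham replicates 1 to 5 and 661, 659, 611, 580.5 and 575 in ovariectomized replicates 1 to 5. All ovariectomized libraries were above all sham libraries, with a log2 difference of 0.84 ± 0.16 (limma voom, adjusted p 0.0315). Its junction reads, 11, 2, 2, 5 and 6 in sham replicates 1 to 5 and 8, 5, 12, 16 and 8 in ovariectomized replicates 1 to 5, overlapped.

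The lower one was ACACB, the acetyl-CoA carboxylase of the mitochondrial surface, which restrains fatty acid oxidation. The normalized non-junction reads at novel_circ_0013745 (chr17:64035632-64038881) were 136, 125, 103, 61.9 and 92.1 in sham replicates 1 to 5 and 33.1, 36.9, 31.6, 60.9 and 24.2 in ovariectomized replicates 1 to 5. The groups were apart by a small margin, 61.9 against 60.9, and the log2 difference was -1.46 ± 0.29 (limma voom, adjusted p 0.0315). Its normalized junction reads, 18.2, 22.9, 21.6, 7.87 and 17.2 in sham replicates 1 to 5 and 5.17, 22.4, 21.1, 52 and 19.8 in ovariectomized replicates 1 to 5, overlapped, with a log2 difference of 0.28 ± 0.51 (limma voom, adjusted p 0.939). ACACB is also on the adipocyte list, of which no other gene has a member to compare, so the part of fat cells in this difference was not tested. Whether its reads came from muscle fibers was not tested either.

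With a library left out, the log2 differences stayed between 0.73 and 0.95 for ASB15 and between -1.68 and -1.34 for ACACB, while the calls varied. Without sham replicate 4, 39 of the 800 passed, these 2 among them. Without ovariectomized replicate 4 only ACACB did. Leaving out any one of the other 8 gave 0. Each of the 4 rings of SLC12A2 was among the 39. For novel_circ_0006714, the ring with the most reads of that gene, the normalized non-junction reads were 124, 179.9, 155, 364 and 129 in sham replicates 1 to 5 and 235, 354, 257, 418 and 356 in ovariectomized replicates 1 to 5. Sham replicate 4 lay with the ovariectomized libraries, and the 4 rings, which share ends, are one observation of the gene and not 4.

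Among those that did not pass, the nearest higher ones were COL15A1, a basement membrane collagen (1.01 ± 0.22, adjusted p 0.066), then AASS, an enzyme of lysine breakdown, ATP2C1, a calcium pump of the Golgi, and JPH1 (0.71, 0.70 and 0.67). Nearest among the lower were CPSF6, a factor of 3' end cleavage (-0.63), CAST, the calpain inhibitor calpastatin (-0.66), and 2 STAU2 rings with a common upstream end (-0.55 and -0.51), all log2 differences with an adjusted p of 0.115 (limma voom). At the abundant MORC3 ring the normalized non-junction reads were 441, 493, 523, 625 and 640.2 in sham replicates 1 to 5 and 829.8, 701, 758, 724 and 810.5 in ovariectomized replicates 1 to 5. The groups were apart there (log2 difference 0.50 ± 0.14, limma voom, adjusted p 0.118), while the junction reads of that ring overlapped.

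The ratio of junction to non-junction reads was fitted for all 806. It was called for 1 ring (0.124%, limma trend on log2 ratios, adjusted p under 0.05), and 67 had an unadjusted p under 0.05 (8.31%), 61 higher and 6 lower after ovariectomy. The ratio carries the balance of the 2 totals of a library, so the median log2 difference over the set was 0.30, with 578 positive and 228 negative. Part of this shift lay in ovariectomized replicate 5: without it the median was 0.14, and 39 were higher and 12 lower at an unadjusted p under 0.05. After subtracting each library's median the median difference was 0.06, and the 67 became 54, with 32 higher and 22 lower. Groups did not overlap for 15 (1.86%), 14 of them higher.

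The ring called was novel_circ_0011146 of SRSF1, a splicing factor that binds exons, at chr11:8494451-8495842 on the minus strand, with 1 block of 119 bases and one end off the block. Its junction reads were 3, 7, 6, 4 and 4 in sham replicates 1 to 5 and 23, 14, 15, 21 and 33 in ovariectomized replicates 1 to 5, and its non-junction reads were 921, 1158, 902, 734 and 1254 in sham replicates 1 to 5 and 847, 777, 590, 803 and 582 in ovariectomized replicates 1 to 5. The junction reads did not overlap between groups (14 to 33 against 3 to 7), and the non-junction reads did. The log2 difference of the ratio was 2.48 ± 0.45 (limma trend, adjusted p 0.0172) and 2.24 after subtracting library medians. It stayed between 2.23 and 2.64 with any one library left out, but the adjusted p passed 0.05 only in 6 of these 10 fits: it was lost without sham replicate 1 and without ovariectomized replicates 3, 4 or 5. The junction reads alone gave 1.77 ± 0.85 (limma voom, adjusted p 0.781) in the fit over 738 circRNAs, and 1.77 ± 0.39 with an adjusted p of 0.0313 when the 806 alone were tested.

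A neighbour of the SRSF1 ring, named here after its values were seen, is the intergenic novel_circ_0011145, which starts its span at position 8492630 and ends at the same 8495842. Its junction reads were 9, 3, 5, 3 and 8 in sham replicates 1 to 5 and 14, 9, 6, 18 and 36 in ovariectomized replicates 1 to 5. They overlapped between groups through ovariectomized replicates 2 and 3 and sham replicates 1 and 5, and the ratio gave 1.74 ± 0.53 (limma trend, adjusted p 0.359). With a shared end, the non-junction reads of the rings are not independent.

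Next by p for a higher ratio were ACACB (2.03 ± 0.49, adjusted p 0.204) and, all at an adjusted p of 0.330 (limma trend), ZNF423, a zinc finger transcription factor (1.73 ± 0.48), ATRN, attractin (1.83 ± 0.51), and KCTD10, an adaptor of cullin ubiquitin ligases (1.39 ± 0.39). The KCTD10 ratios were 0.27, 0.151, 0.284, 0.5 and 0.268 in sham replicates 1 to 5 and 0.597, 0.596, 0.816, 0.653 and 1.07 in ovariectomized replicates 1 to 5, with the groups apart. The lower ones nearest the threshold were LOC101117325 (-1.44), RAPGEF1, an exchange factor (-1.12), MTFR1, a mitochondrial regulator (-1.13), JPH1 (-1.12) and SSBP1, which binds mitochondrial DNA (-0.93), with adjusted p from 0.516 to 0.594 (limma trend).

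**Figure D5:**
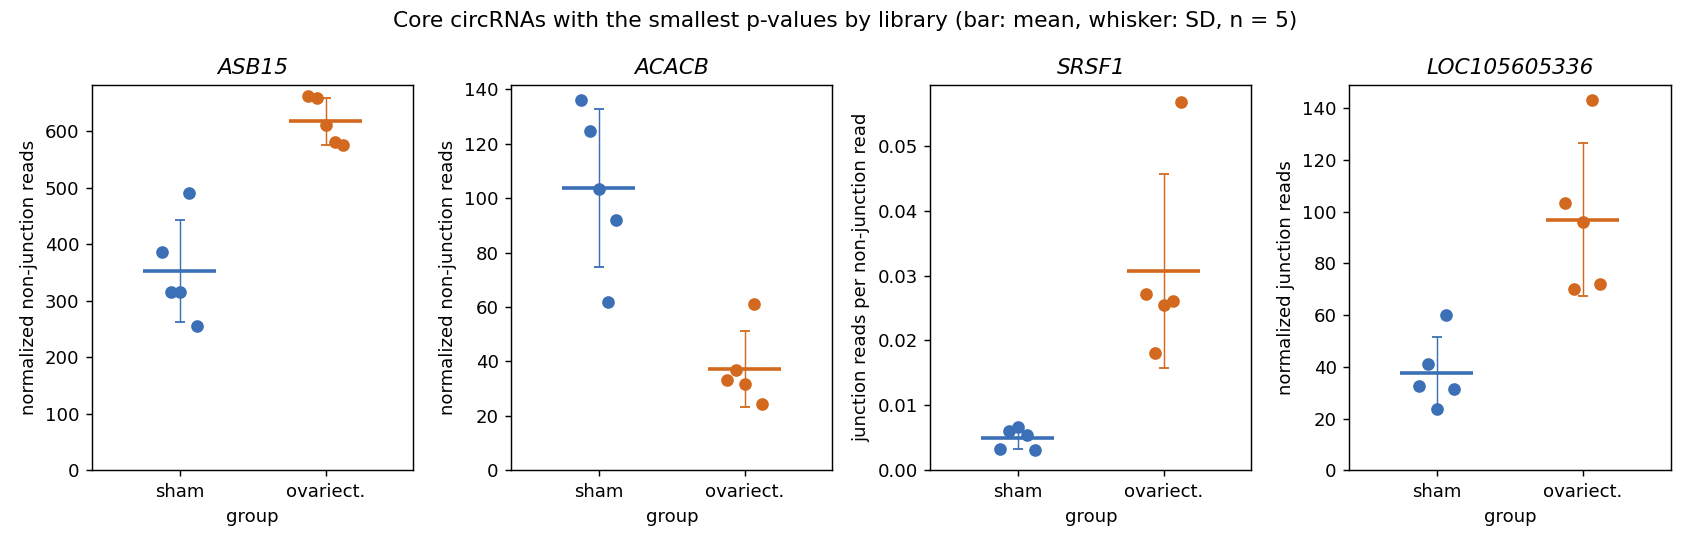
Values by library in the sham and ovariectomized groups (n = 5 each, bar at the mean, whisker of 1 SD) for non-junction reads of ASB15 and ACACB, the ratio of SRSF1 and the junction reads of LOC105605336. The groups do not overlap in any of the 4 panels, and the SRSF1 ratio of ovariectomized replicate 5 reaches 0.0567.

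By gene list, no member passed for junction reads. The median log2 difference in junction reads was -0.15 over 13 tested rings of sarcomere genes, 0.27 over 6 of calcium and excitability genes, -0.12 over 9 of myogenic regulators, -0.23 over 15 of RNA binding genes and -0.18 over 28 of ubiquitin and SUMO enzymes, beside -0.04 over all 738. The single calls in the other measures belonged to the RNA binding list (SRSF1, ratio) and the adipocyte list (ACACB, non-junction reads), and ASB15 is on none of the lists.

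The authors' deposited table gives its own p-values for junction signal. Among the 806, the authors' deposited table had 44 with a p under 0.05 (5.46%), 22 higher and 22 lower after ovariectomy, where 118 of all 8721 had one (1.35%). Most of the 8721 have few reads, with a median of 10 junction reads over all libraries, against 165 in the set. The authors' deposited table had 1 member with an adjusted p under 0.05.

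The series title names FAM171A1 and MAPK15. FAM171A1, which encodes a membrane protein, hosted 1 member, novel_circ_0011823 at chr13:29185543-29191802 on the minus strand, with 2 blocks and 321 spliced bases. It was not matched to the circRNA of the title. Its junction reads were 5, 5, 11, 10 and 3 in sham replicates 1 to 5 and 4, 8, 18, 12 and 31 in ovariectomized replicates 1 to 5, overlapping between groups and below the filter of the junction fit. Its non-junction reads were 9, 22, 16, 8 and 13 in sham replicates 1 to 5 and 20, 13, 8, 11 and 17 in ovariectomized replicates 1 to 5, and the log2 difference of the ratio was 0.84 ± 0.58 (limma trend, adjusted p 0.698). MAPK15 hosted no member.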

How the data were processed

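Total RNA of 10 libraries (5 sham, 5 ovariectomized) was sequenced with a kit that keeps strand, per the labels' protocols. HISAT2 is named in the submitters' processing notes, while the circRNA caller and genome build are not given in the sources used. Coordinates are those of the deposited tables. The authors deposited junction read counts and non-junction read counts as lists per circRNA; 10 other sample names in these lists were not used. A further table deposited by the authors holds their mean normalized read signal per group, a log2 fold change and p-values before and after adjustment, with no value per library.

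Members and gene lists were chosen with earlier results of these data known. A library with no entry was read as not listed. The junction fits took it as having no junction reads, while its non-junction reads stayed unknown. An entry can be missing for a circRNA that is abundant in other libraries. Library sizes were scaled by trimmed means of M-values (30% and 5% trims). Junction and non-junction reads were fitted with limma 3.58.1 voom, and log2 ratios, with 0.5 added to both counts, with limma trend, both with robust empirical Bayes (statmod 1.5.0, R 4.3.3) and Benjamini-Hochberg adjustment over all circRNAs tested at 0.05. The junction fit kept circRNAs with at least 10 reads, scaled to the median library, in at least 5 libraries and a total of at least 15. Other scalings, filters and pseudocounts, a limma trend fit of junction reads, a replicate block and leaving out each library were tried as alternatives. The fits were tested on simulated data.

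The circRNAs named are the 12 most abundant, the 8 hosts with most members, the 5 steadiest and 5 most variable with a mean of at least 20 reads, the 5 highest and 5 lowest ratios, the 5 longest and 5 shortest, those called or the 5 with the smallest p in each direction, the 3 leading hosts of each list, the 3 most abundant just outside, and the genes of the title. Of 795 members with a host, 790 were found by gene identifier in the RefSeq gene table (ARS-UI_Ramb_v3.0), used for names and gene types. Reads are not marked as unique molecules, so counting error is a lower limit of the technical error.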

Additional observations from a re-analysis of the deposited data

Results flagged for a closer look

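Of 130 groups of 5 values checked, 12 held a library that stood apart from the other 4 by Dixon's criterion (0.71 for 5 samples), where chance gives about 1 in 20. The groups include rings named for their wide spread, which supply 4 of the 12, so the number is no test.

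The median of junction reads per non-junction read over the 806 circRNAs was 0.183 in ovariectomized replicate 5 and 0.104 to 0.120 in the other ovariectomized libraries. The same library was the high one for the ratio of the SRSF1 ring, at 0.0567 against 0.0180 to 0.0272, and of the ATRN ring, at 0.767 against 0.106 to 0.263. It was the low one for normalized junction reads of the STAU2 ring, at 50.8 against 278 to 359.

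Sham replicate 5 was high for the same STAU2 ring, at 534 against 219.5 to 309, and for the intergenic novel_circ_0008816, at 269.6 against 12 to 46.3. That intergenic ring was also high in ovariectomized replicate 4, at 198.5 against 4.34 to 43.7. Sham replicate 1 was high for SNX13, at 304.5 against 217.5 to 236, and for SNRK, at 142 against 91.5 to 106.

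The EPDR1 ring was high in replicate 2 of both groups, at 115.5 against 9.84 to 32.5 in sham and at 268 against 15.5 to 40.1 after ovariectomy. The MYBPC1 ring novel_circ_0004664 had 0.00201 junction reads per non-junction read in ovariectomized replicate 4 and 0.000494 to 0.000858 in the other 4.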

How the results depend on the processing

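For junction reads the count of calls was 0 with every library left out in turn and under both other scalings, and it rose to 30 of 8721 with no filter (3 in the set), to 4 of 2690 with at least 2 reads in 5 libraries (2 in the set) and to 2 with the set alone tested. The non-junction calls ranged from 0 to 39 with a library left out, and the ratio calls from 0 to 2. With at least 10 junction and 10 non-junction reads in every library, 0 of 284 ratios were called; SRSF1 was not among those tested. A replicate block gave 3 junction calls (1 in the set), 0 non-junction calls and 0 ratio calls. Whether the replicate numbers pair the libraries is not settled. Same-number libraries deviated together with correlations of -0.04 to 0.10, 0.00 to 0.11 and -0.06 to 0.15 in the 3 measures. In each measure 2 of 10 libraries were nearest to their own number. Some rings followed the number: EPDR1 was high in replicate 2 of both groups. The abundant SENP6 circRNA outside the set was missing from replicates 2 and 4 of both groups. The settings chosen after seeing the data, ratios with library medians subtracted and ratios over 1997 circRNAs, each gave 1 call. The number of members was 503 with at least 5 reads in every library, 297 with at least 10, and 825 to 870 with a library left out. The share of junction reads was 64.0% without the most abundant circRNA of the table and 59.3 to 61.4% with a library left out. Log2 differences changed sign for TTN novel_circ_0002388 (0.0601 with library totals, -0.20 to 0.11 with a library left out), ARHGAP10 novel_circ_0013404 (0.0614 with library totals, -0.19 to 0.0385), STAU2 novel_circ_0009801 (-0.63 to 0.16) and SNX13 novel_circ_0006036 (-0.0409 to 0.24). Of 523 other values for 41 named differences, 480 kept direction and side of the threshold. Depth limits the low end: 101 members had a library at 2 reads, and 201 fell below the filter.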
